A study of Mus musculus with 6 samples.

Results

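Transcripts of 8 factors that mark or maintain stem-like and memory T cells were followed in T helper 17 (Th17) cells carrying wild-type RORγt (WT) or the RORγt N275D variant. The 8 genes were Tcf7, Lef1, Bach2, Satb1, Bcl6, Myb, Tox and Slamf6, chosen by name from the 16244 genes of the deposited table. Satb1 rose in N275D cells, with a small rise of Bach2. Slamf6, Tox and Lef1 fell. Tcf7, Bcl6 and Myb did not pass the test.

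Both groups were CD4+ T cells from spleen, described as naive, from mice of C57BL/6 background. They were stimulated with anti-CD3 and anti-CD28 for 3 days under pathogenic Th17 conditions with IL-6, IL-1β and IL-23. The study's methods list these cytokines together with TGF-β, anti-IL-4 and anti-IFN-γ, whereas the description of the series names IL-6, IL-1β and IL-23 alone. WT mice were bought in as C57BL/6NJ and N275D knockin mice came from another source, so genotype and colony cannot be told apart. The knockin allele was present in all cells of the animal. For these libraries the labels give no age, sex or zygosity of the donors, while the methods state an age of 6 to 12 weeks for mice in general. Cells were obtained by magnetic negative selection, for which the methods name a CD4+ T cell kit in one place and a naive CD4+ T cell kit in another. Each genotype had 3 libraries. Nothing says whether they came from separate mice or cultures, so p-values measure only the spread between these libraries, which may be technical. The comparison asks which transcripts the variant changes in cells polarized by inflammatory cytokines.

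T cells that have not yet become effectors, and the memory cells that can renew a response, share a transcriptional program. TCF-1 (the product of Tcf7) and LEF-1 are sister DNA-binding proteins of the Wnt pathway that hold this program. BACH2 and BCL6 repress effector genes, BCL6 in mutual opposition to BLIMP-1 (Prdm1), and MYB supports self-renewal of stem-like memory cells. SATB1 organizes chromatin in thymocytes and peripheral T cells, and TOX sustains T cells under persistent antigen, where SLAMF6, a surface receptor, marks the stem-like fraction. In Th17 cells, TCF-1-expressing cells are known as a long-lived pool that can give rise to further effectors.

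The libraries held between 17659035 and 18510878 reads on genes. WT replicate 3 stood farthest from its group. The mean chi-square per gene, about 1 for counting noise alone, was 5.126 and 5.683 against the other WT libraries, 1.855 between those, and 1.607 to 2.011 among the N275D libraries. The cells carried T cell and Th17 transcripts, with Il17a at 27166 to 27888 normalised reads in WT and 31814 to 32673 in N275D. Of 8 Th17 markers tested, 6 rose and 1 fell. Of 7 B cell markers tested, 6 rose and 0 fell. The summed level of the 8 B cell markers in the table was 1140 to 1178 in WT and 1742 to 1808 in N275D. Most of that sum was Ebf1, and without it the sums were 173 to 183 and 270 to 328. Ms4a1, a defining B cell marker, was at 0 in WT replicates 2 and 3 and did not exceed 9.88 in any library. Markers of CD8 T and natural killer cells summed to 148 to 171 in WT and 215 to 233 in N275D, with 2 of 3 tested higher. Myeloid markers summed to 53.5 to 59.9 and 61.2 to 70.9, with 1 of 2 tested higher and 1 lower. Gamma delta T markers summed to 21.2 to 35.4 and 39.9 to 43.5, with the 1 tested gene higher. Of 4 regulatory T cell markers, the 2 that rose were Il2ra and Il10. Foxp3, at 50.9 ± 9.29 in WT and 38.2 ± 5 in N275D, did not pass the test. Ikzf2, at 405 ± 41.8 and 452 ± 29.3, did not pass it either. The part of these cell types in the results on the 8 factors was not tested.

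Levels of the 8 genes were first compared with each other as normalised reads per kb of exon, the combined exon length of each gene in GENCODE M21. By this measure Tcf7 was the most abundant, with 2094 ± 118 reads per kb in WT (SD, n = 3) and 2095 ± 17.3 in N275D. Satb1 followed at 577 ± 7.83 in WT and 744 ± 4.52 in N275D. These 2 nuclear factors stood apart from the other members in every library. Their order depends on the length used, 2.625 kb for Tcf7 and 19.027 kb for Satb1, which combines the exons of all annotated transcripts. Before division by length, Satb1 was above Tcf7, with means of 10983 and 5497 normalised reads in WT.

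Bach2 had 376 to 391 reads per kb in WT and Lef1 had 337 to 395, so their order per kb could not be read from the WT libraries. In N275D the same pair separated, with Bach2 at 404 to 424 and Lef1 at 253 to 285. Myb came next at 82.1 ± 2.82 reads per kb in WT and 82.4 ± 3.27 in N275D, above Bcl6 at 57.7 ± 3.28 and 58.6 ± 1.96. Slamf6 and Tox were lowest per kb. In WT their ranges were adjacent but separate, 40.9 to 41.1 for Slamf6 and 36 to 39.5 for Tox. In N275D they overlapped, at 19.2 to 21.5 and 19.7 to 22.6. The combined exons of Slamf6 span 10.832 kb. Before division by length, its WT mean of 444 normalised reads was above that of Bcl6, 387. In N275D it was below, at 222 and 393.

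**Figure D1:**
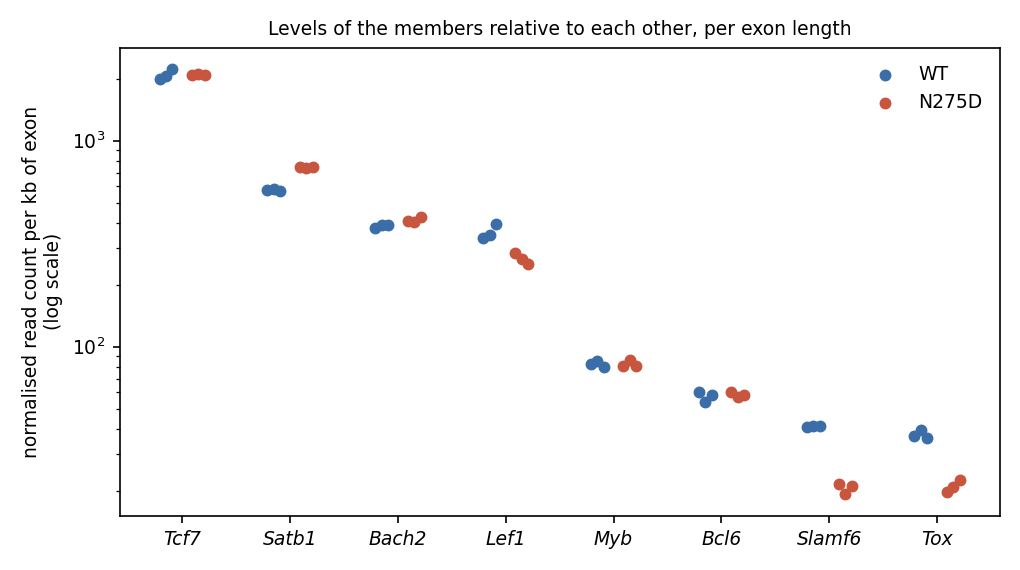
Level of each of the 8 factors as normalised reads per kb of exon (log axis), with 1 point per library for WT (blue) and N275D (red). Tcf7 lies near 2094 reads per kb in both genotypes, Bach2 and Lef1 share a level only in WT, and Slamf6 and Tox are lowest, both close to 21 in N275D.

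All 8 genes passed the minimum mean of 10 normalised reads, and 5 were called at an adjusted p under 0.05 in limma's moderated test, 2 higher and 3 lower in N275D. This count stands beside a background of 50.9% of the 11908 genes tested, with 24.7% called higher and 26.1% called lower. The same 5 genes had no overlap between genotypes, beside 57.7% of all genes tested. None of the 8 was called at 2-fold, a rule that 3.59% of genes met. The median log2 fold change was 0.0033 over the 8 genes and -0.0026 over all genes tested. These shares of the members lay near those of all genes. All counts of markers and related lists in this report stand beside the same background. The share called in the 7 related lists ran from 53.8% for the paralogs to 100% for the 6 tested follicular helper genes. Because each value is a level in bulk RNA, fewer cells of a type and less RNA per cell cannot be told apart.

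**Figure D2:**
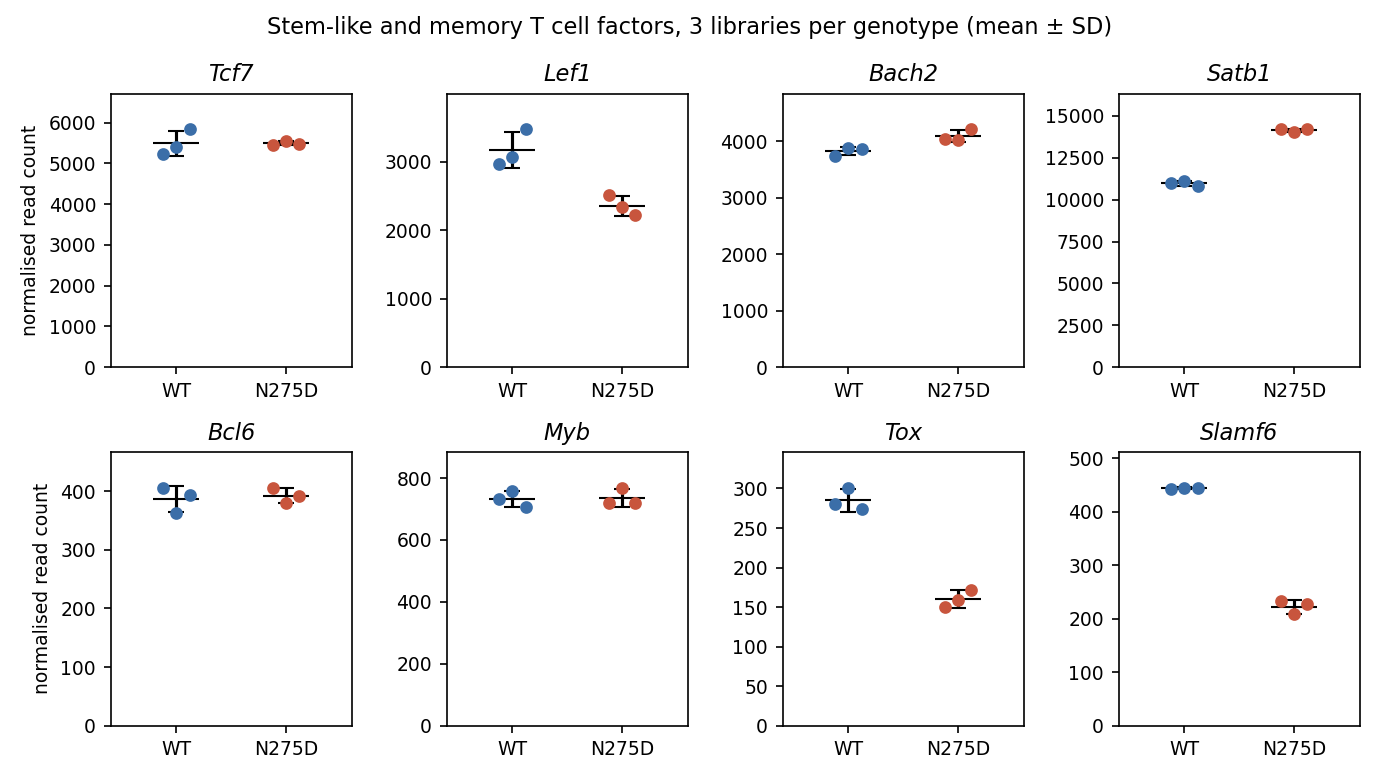
Normalised read count of each factor in each library, WT in blue and N275D in red, with the mean and SD (n = 3) in black and every axis starting at 0. The genotypes are separate for Lef1, Bach2, Satb1, Tox and Slamf6 and overlap for Tcf7, Bcl6 and Myb.

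Tcf7 (gene 21414, chr11:52246527-52283383, minus strand, mm10), the TCF-1 gene, had 5244, 5406 and 5842 normalised reads in the WT libraries and 5459, 5548 and 5488 in the N275D libraries. All 3 N275D values lay inside the WT range, whose upper end was WT replicate 3. The means were 5497 ± 309 and 5498 ± 45.4 (SD, n = 3), and the log2 fold change was 0.0017 (SE 0.04, 95% interval -0.08 to 0.09, adjusted p = 0.976). Without WT replicate 3 it was 0.05 (adjusted p = 0.209).

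Lef1 (gene 16842, chr3:131110297-131224357, plus strand), the other TCF/LEF gene of T cells, had 2965, 3072 and 3475 normalised reads in WT and 2508, 2342 and 2222 in N275D. Every N275D library was below every WT library, and WT replicate 3 was again the highest. The mean fell by 25.6%, from 3171 ± 269 to 2357 ± 143, with a log2 fold change of -0.43 (SE 0.06, 95% interval -0.55 to -0.31, adjusted p = 1.26e-05). Without WT replicate 3 the log2 fold change was -0.36 (adjusted p = 7.57e-08). The level of Tcf7 relative to Lef1 in the same library, as a log2 ratio of normalised reads, was 0.822, 0.815 and 0.749 in WT and 1.122, 1.244 and 1.304 in N275D. The ratio was higher in all 3 N275D libraries, by 0.428 on average, with an exact two-sided permutation p of 0.1 (0.12 adjusted over 6 pairs), the smallest that 3 libraries against 3 allow.

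The other TCF/LEF genes were scarce. Tcf7l1 rose from 15.3 ± 2.05 to 28.2 ± 4.62 normalised reads (log2 fold change 0.84, adjusted p = 0.00697), and Tcf7l2 did not exceed 2.95 in any library and was not tested. Among 17 tested partners of TCF/LEF proteins and Wnt pathway genes, 7 rose and 4 fell, and their median was 0.06 on the log2 scale. The count that rose was 3 without WT replicate 1 or 2 or N275D replicate 1 or 3, and also 3 in DESeq2. Of 5 genes of the Groucho family, which includes corepressors that bind TCF-1 and LEF-1, 4 rose and 1 fell. Tle1 rose (342 ± 25.5 to 634 ± 25.5 normalised reads, log2 fold change 0.89, adjusted p = 2.35e-08) and so did the scarce Tle2 (13.3 ± 0.708 to 22.6 ± 5.68, 0.69, adjusted p = 0.0345). Tle4 and Tle5, named after their values were seen, rose by 0.20 each (adjusted p = 0.0135 and 0.0175). For Tle5 the genotypes overlapped, with 3141 to 3945 normalised reads in WT and 3774 to 4143 in N275D. The abundant Tle3 fell (4439 ± 190 to 3602 ± 108, -0.30, adjusted p = 1.63e-05). Ctnnb1, which encodes the coactivator β-catenin, fell by 0.17 on the log2 scale (adjusted p = 0.000668), as did the adaptor gene Ldb1 by 0.25 (adjusted p = 0.000217). The kinases that mark β-catenin for degradation moved apart, Gsk3b by 0.28 (adjusted p = 6.08e-05) and Gsk3a by -0.16 (adjusted p = 0.00528). Axin2, a widely used Wnt target, had 86.7 ± 4.51 normalised reads in WT and 107 ± 7.53 in N275D (log2 fold change 0.30, adjusted p = 0.0354). Both Tle2 and Axin2 lost the call under 7 of 16 alternative settings. For Tle2 these included leaving out any library but N275D replicate 2 (adjusted p of 0.0543 to 0.182), and for Axin2 leaving out WT replicate 1 or 3 or N275D replicate 2 or 3 (0.0544 to 0.141). That of Tle4 was lost without WT replicate 2 or N275D replicate 1 or 3 (0.0525, 0.0525 and 0.0558), and that of Tle5 without WT replicate 1 or 2 or N275D replicate 1 (0.0832, 0.0912 and 0.0932). The call of Tle5 was also lost in limma without a trend (0.138) and in DESeq2 (0.147). Those of Ctnnb1 and Gsk3a were lost under quantile normalization (0.0521 and 0.0942).

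To set sequence beside these values, the 250 bases upstream of each start site were searched on both strands for the TCF/LEF core CTTTGA and for the RORγt half-site AGGTCA. RefSeq promoters (GRCm38.p6) were matched for 7 of the 8 members, all but Tox, with 16 start sites in all. The TCF/LEF core was in 3 of the 16, against 13.8% of 32851 promoters, and the half-site in 2, against 14%. No start site of a member held both. The stretches around the hits are printed, except that of Satb1, which overlaps an exon of Satb1, with the match in capitals (TCAAAG and TGACCT are the reverse complements). Slamf6, the member that fell most, is added because neither motif was found in its 250 bases.
Lef1 (chr3:131156089-131156204, plus strand, ending before an internal start site at 131156294): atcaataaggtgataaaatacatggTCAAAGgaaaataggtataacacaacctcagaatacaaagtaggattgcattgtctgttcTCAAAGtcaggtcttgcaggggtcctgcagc
Bach2 (chr4:32417317-32417372, plus strand): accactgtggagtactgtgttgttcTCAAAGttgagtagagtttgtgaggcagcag
Bcl6 (chr16:23981297-23981352, minus strand): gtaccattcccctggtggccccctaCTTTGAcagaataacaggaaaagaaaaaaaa
Tcf7 (chr11:52282596-52282633, minus strand): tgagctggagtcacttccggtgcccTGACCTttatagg
Slamf6 (chr1:171917342-171917461, plus strand): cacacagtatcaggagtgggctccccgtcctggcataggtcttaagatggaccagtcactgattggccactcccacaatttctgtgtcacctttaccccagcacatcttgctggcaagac

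None of the printed stretches overlapped an annotated exon. Those of Lef1, Bach2, Bcl6 and Tcf7 lay between exons of their own genes, the one of Tcf7 also inside A630014C17Rik on the other strand, and that of Slamf6 lay inside Gm37065 on the other strand. Like that of Lef1, the start sites behind the hits of Bach2 (32417435), Bcl6 (23981283) and Tcf7 (52282595) were internal to the gene. For Bach2 this was the 1 start site searched, so the bases before the outer end of the gene at 32238413 were not. The genes with the TCF/LEF core went in different directions, Lef1 lower, Bach2 higher and Bcl6 not called. The half-site was found upstream of a start site inside Tcf7, which was not called, and of a start site inside Satb1, which rose. The same bases were also searched for the hypoxia response cores ACGTG and GCGTG, whose hits are not printed. ACGTG was in 2 of the 16, at Bcl6 and Lef1, against 16.6% of promoters. GCGTG was in 2 of the 16, at Myb and Satb1, against 28.2%. Reads were counted per gene, so the start sites of Lef1 (4 annotated), Satb1 (5), Tcf7 (2) and Bcl6 (2) could not be told apart. A match of letters is a description of the sequence and not a measured binding site.

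Satb1 (gene 20230, chr17:51736187-51833290, minus strand), which encodes a chromatin organizer of T cells, had 10970, 11138 and 10841 normalised reads in WT and 14204, 14052 and 14197 in N275D. The 3 N275D libraries lay within a narrow band above all WT libraries. The mean rose by 28.8%, from 10983 ± 149 to 14151 ± 85.9 (log2 fold change 0.37, SE 0.03, 95% interval 0.30 to 0.43, adjusted p = 1.1e-07). In normalised reads, the quantity that sets counting error, it lay above 98.7% of the genes tested.

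Bach2 (gene 12014, chr4:32238413-32586109, plus strand), a repressor of effector genes, had 3741, 3884 and 3867 normalised reads in WT and 4041, 4020 and 4216 in N275D. The gap between the highest WT and the lowest N275D library was small. The mean was higher by 6.82%, 3830 ± 78.3 against 4092 ± 108 (log2 fold change 0.10, SE 0.04, 95% interval 0.02 to 0.17, adjusted p = 0.0437). The call was kept under 8 of the 17 alternative settings, with adjusted p between 0.00142 and 0.186, and was lost on leaving out any library other than WT replicate 3, with adjusted p of 0.149 and 0.0556 without WT replicates 1 and 2, and of 0.0786, 0.0734 and 0.186 without N275D replicates 1, 2 and 3. Bach1, the paralog, had 98.3 ± 12.8 and 103 ± 6.46 (log2 fold change 0.07, adjusted p = 0.664). The small MAF proteins that pair with BACH2 on DNA moved in both directions: Mafg rose (log2 fold change 0.16, adjusted p = 0.0135, and 0.0755, 0.061 and 0.0517 without WT replicate 2, N275D replicate 1 or N275D replicate 2) and Maff fell (-0.45, adjusted p = 0.000312). Bach2 is also expressed by B cells, whose markers summed to 173 to 183 in WT and 270 to 328 in N275D without Ebf1. B cells should be removed by the negative selection, and their part in the Bach2 value was not tested.

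Bcl6 (gene 12053, chr16:23965050-23988866, minus strand), the repressor that opposes BLIMP-1, had 405, 362 and 393 normalised reads in WT and 406, 380 and 391 in N275D. The genotypes overlapped over nearly their whole range. The means were 387 ± 22 and 393 ± 13.1 (log2 fold change 0.02, SE 0.07, 95% interval -0.12 to 0.17, adjusted p = 0.797). Among corepressor genes whose products BCL6 recruits, Bcor fell from 4643 ± 82.7 to 3184 ± 109 (log2 fold change -0.54, adjusted p = 1.04e-08). Ncor1 fell by 0.18 on the log2 scale (adjusted p = 0.000779, and 0.0889 under quantile normalization). Hdac3, on the same cofactor list and named after its values were seen, had 1639 ± 11.5 and 1644 ± 11.4 (0.0048, adjusted p = 0.931). Over the 13 tested cofactors and adaptors of the 8 proteins, 3 rose and 5 fell, with a median of 0.00, and 1 rose without N275D replicate 1 or 2.

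Myb (gene 17863, chr10:21124930-21160984, minus strand), a regulator of self-renewal in stem-like memory cells, had 733, 759 and 708 normalised reads in WT and 718, 769 and 720 in N275D. The genotypes interleaved. The means were 733 ± 25.2 and 736 ± 29.2 (log2 fold change 0.0048, SE 0.05, 95% interval -0.11 to 0.12, adjusted p = 0.949). Both paralogs fell. Mybl2, a cell cycle transcription factor, went from 3046 ± 71.3 to 2376 ± 63.2 (log2 fold change -0.36, adjusted p = 1.92e-06), and Mybl1 from 239 ± 31.2 to 190 ± 8.07 (-0.32, adjusted p = 0.0111, and 0.0711 without WT replicate 1). Of the acetyltransferases on the cofactor list, Crebbp, whose product binds MYB, rose by 0.16 (adjusted p = 0.0269, and 0.154, 0.0679, 0.0948 and 0.0542 without WT replicate 1 or N275D replicate 1, 2 or 3) and Kat7 by 0.20 (adjusted p = 0.000903). Ep300, whose product also binds MYB and which was named after its values were seen, had 2973 ± 175 and 2919 ± 79.6 (-0.0250, adjusted p = 0.673).

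Tox (gene 252838, chr4:6686353-6991557, minus strand), which encodes an HMG-box factor of persistently stimulated T cells, had 280, 301 and 274 normalised reads in WT and 150, 159 and 172 in N275D. The highest N275D library was far below the lowest WT library. The mean fell by 43.7%, from 285 ± 14 to 160 ± 11.1 (log2 fold change -0.83, SE 0.08, 95% interval -1.01 to -0.65, adjusted p = 6.99e-07). The remaining TOX genes did not pass the test: Tox2 at 59.3 ± 0.732 and 49.8 ± 12.2 (log2 fold change -0.28, adjusted p = 0.197), the scarce Tox3 at 16.6 ± 3.5 and 15.3 ± 1.4 (-0.10, adjusted p = 0.771) and the widely expressed Tox4 at 2449 ± 49.8 and 2428 ± 92.4 (-0.01, adjusted p = 0.818). Relative to Tox in the same library, Tcf7 was higher in all 3 N275D libraries, by 0.83 on the log2 scale (4.266 in WT and 5.096 in N275D, exact two-sided permutation p = 0.1, 0.12 adjusted over 6 pairs).

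Slamf6 (gene 30925, chr1:171917458-171948958, plus strand), the receptor used to mark stem-like cells under chronic stimulation, had 443, 445 and 445 normalised reads in WT and 233, 208 and 227 in N275D. The WT libraries were almost identical, and each N275D library was at 46.7% to 52.4% of their mean. The mean fell by 49.9%, from 444 ± 1.05 to 222 ± 13.1 (log2 fold change -0.9964, SE 0.07, 95% interval -1.15 to -0.85, adjusted p = 1.03e-08). This lay just short of the 2-fold rule, which it met under 4 of the 17 alternative settings.

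Slamf6 belongs to the SLAM receptors, which bind one another or themselves between lymphocytes. Of 9 genes of that family in the table, 6 were tested, 5 fell and 0 rose, beside the 26.1% of all genes called lower. The 6 tested genes are neighbours on chromosome 1, from the start of Ly9 at 171588613 to the end of Slamf6 at 171948958. They may therefore not be separate observations, and whether the falls were separate was not tested. Cd84 fell from 984 ± 53.5 to 679 ± 11.7 normalised reads (log2 fold change -0.53, adjusted p = 6.82e-07) and Slamf1 from 1689 ± 38.1 to 1309 ± 20.4 (-0.37, adjusted p = 3.56e-06). The next 3 were named after their values were seen. Cd48 fell by 0.25 on the log2 scale (adjusted p = 0.000711) and Ly9 by 0.18 (adjusted p = 0.00484), while Slamf7 had 351 ± 12.6 and 359 ± 21.1 (0.03, adjusted p = 0.719). Among the 6 tested, Slamf6 had the lowest N275D level as a share of WT. Sh2d1a, which encodes SAP, the adaptor that carries SLAM receptor signals, had 240 ± 33.9 and 246 ± 2.82 (0.04, adjusted p = 0.729). Counting all paralogs of the 8 members, 13 were tested, 1 rose and 6 fell, with a median of -0.25.

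**Figure D3:**
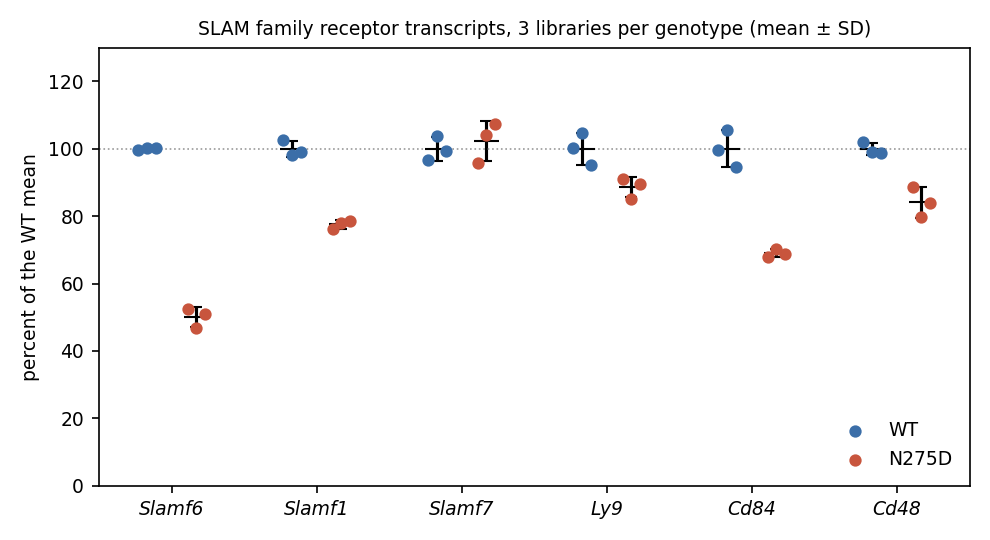
Normalised reads of 6 SLAM family receptors in each library as a percentage of the WT mean of the same gene, WT in blue and N275D in red, with mean and SD (n = 3). Slamf6 in N275D lies at 46.7% to 52.4%, Cd84 at 67.9% to 70.2% and Slamf1 at 76.2% to 78.5%, while Slamf7 lies at 95.7% to 107.3%.

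**Figure D4:**
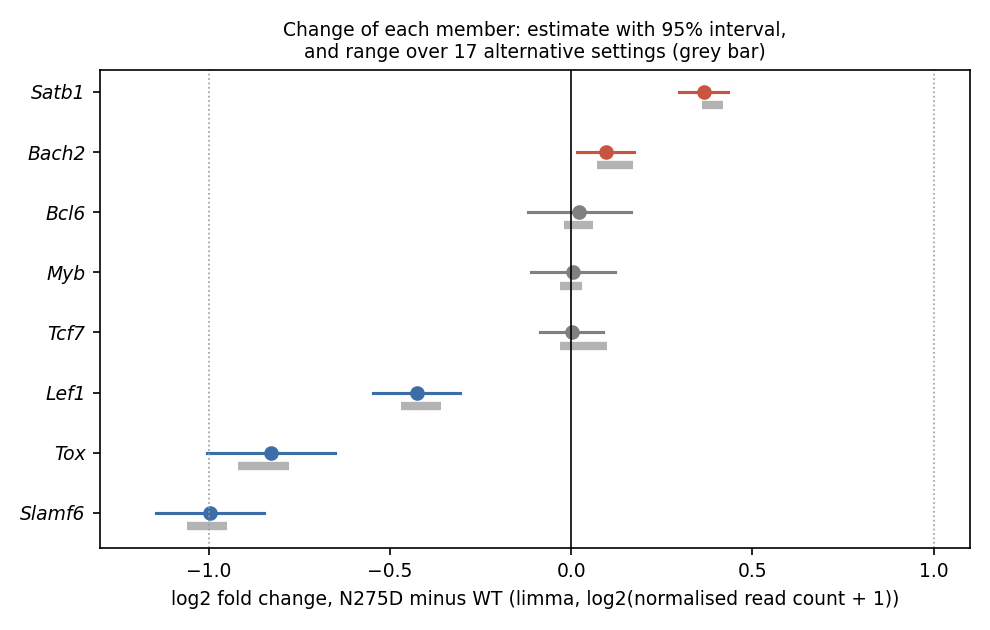
Log2 fold change of each factor, N275D minus WT, with its 95% interval (red called higher, blue called lower, grey not called) and the range over 17 alternative settings as a grey bar. Slamf6, Tox and Lef1 lie below 0 and Satb1 above 0 under all 17, Bach2 spans 0.07 to 0.17, and the bars of Tcf7, Bcl6 and Myb cross 0.

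The direction and call of Satb1, Lef1, Tox and Slamf6 held under all 17 alternative settings, with log2 fold changes of 0.36 to 0.42 for Satb1, -0.47 to -0.36 for Lef1, -0.92 to -0.78 for Tox and -1.06 to -0.95 for Slamf6. Tcf7, Bcl6 and Myb were called under 0 of 17. Their ranges were -0.03 to 0.10, -0.02 to 0.06 and -0.03 to 0.03. The upper end for Tcf7 came from limma after quantile normalization, with an adjusted p of 0.0504, just short of a call.

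Genes on the effector side of the program were also divided. Of 13 tested transcription factors, 7 rose and 3 fell, and the median change was 0.08 on the log2 scale. Without N275D replicate 2 or 3, 4 rose. Prdm1, the BLIMP-1 gene, had 39.4, 37.3 and 36.3 normalised reads in WT and 45.9, 50.2 and 59.3 in N275D (log2 fold change 0.44, adjusted p = 0.0316, lost under 7 of 16 alternatives). Among those were leaving out WT replicate 2 or 3 or N275D replicate 2 or 3 (adjusted p of 0.0627, 0.0629, 0.062 and 0.143). Zeb2, which promotes terminal effector cells, rose from 394 ± 8.26 to 758 ± 21.1 (0.94, adjusted p = 1.42e-09). Eomes and Maf rose by 0.69 and 0.52 (adjusted p = 0.000803 and 6.64e-05). Tbx21, which encodes the Th1 factor T-bet, fell from 565 ± 10.2 to 318 ± 23 (-0.83, adjusted p = 5.19e-08). Batf and Fosl2, AP-1 family genes, fell by 0.51 and 0.36 (adjusted p = 1.17e-06 and 2.8e-06). Id2, an inhibitor of E proteins found in effector cells, had 2184 ± 69.2 and 2188 ± 19 (0.0033, adjusted p = 0.954).

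Against Prdm1 in the same library, each of 3 members was lower in all N275D libraries. The log2 ratio to Prdm1 went from 7.151 to 6.711 for Tcf7, from 6.631 to 6.285 for Bach2 and from 3.324 to 2.906 for Bcl6, each with the smallest exact two-sided permutation p possible, 0.1 (0.12 adjusted over 6 pairs). All 3 ratios share the Prdm1 values, and since Tcf7 and Bcl6 were not called and Bach2 was higher, they restate the difference in Prdm1, which had a mean of 37.7 ± 1.54 in WT and 51.8 ± 6.81 in N275D. The ratio of Tcf7 to Id2 was 1.331 ± 0.036 and 1.329 ± 0.024 (exact two-sided permutation p = 0.9). The Tcf7 ratios to Lef1 and Tox likewise restate the falls of Lef1 and Tox.

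Among 27 tested genes that otherwise mark naive, central memory or stem-like T cells, 11 rose and 7 fell, and the median change was 0.17 on the log2 scale. At 2-fold, 4 rose and 1 fell. Those that rose included Il7r, the IL-7 receptor chain of long-lived T cells (592 ± 31.8 to 1502 ± 65.4, log2 fold change 1.34, adjusted p = 1.49e-11), Nt5e, which encodes CD73 (59.8 ± 8.42 to 157 ± 13.7, 1.39, adjusted p = 2.17e-07), and S1pr1, for exit from lymph nodes (626 ± 24.2 to 1286 ± 24, 1.04, adjusted p = 1.09e-10). Ccr7, which guides entry into them, rose from 3230 ± 150 to 4310 ± 151 (0.42, adjusted p = 7.83e-07), and Cxcr5, for entry into follicles, from 55.6 ± 10.2 to 97.6 ± 6.32 (0.82, adjusted p = 0.000209). Klf2, which drives S1pr1, was scarce, at 17 ± 1.88 and 21.3 ± 2.21 (0.31, adjusted p = 0.295). Ccr7 and Cxcr5 are also expressed by B cells, whose markers were higher in N275D as given above, although the negative selection should remove those cells. Their part in these rises was not tested.

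The fall at 2-fold was Id3, the E protein inhibitor of naive and memory cells, from 2569 ± 74.4 to 1147 ± 49.5 (log2 fold change -1.16, adjusted p = 9.02e-12). P2rx7, an ATP-gated channel, fell by 0.81 (adjusted p = 4.96e-06). Nsg2 and Il6ra, the latter encoding the IL-6 receptor chain, fell by 0.37 and 0.36 (adjusted p = 0.00206 and 0.00127).

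Tox and Slamf6 are best known from chronic stimulation, and of 11 such genes tested 4 rose and 5 fell, with a median of -0.24. The inhibitory receptor gene Pdcd1 fell from 4273 ± 129 to 2458 ± 92.5 normalised reads (log2 fold change -0.80, adjusted p = 2.3e-10). Genes of the NR4A nuclear receptors, which respond to antigen receptor signals, fell together: Nr4a1 by 0.84, Nr4a2 by 0.42 and Nr4a3 by 0.41 on the log2 scale (adjusted p = 4.79e-10, 5.31e-06 and 1.19e-05). Havcr2, which encodes the inhibitory receptor TIM-3, rose from 8.98 ± 2.56 to 27.6 ± 5.11 (1.54, adjusted p = 0.000337). Entpd1, which encodes CD39, rose from 35.6 ± 5.5 to 86.3 ± 8.5 (1.26, adjusted p = 5.87e-06). Tigit and Lag3 rose by 0.53 and 0.45 (adjusted p = 7.39e-07 and 0.00122).

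Bcl6 and Tcf7 also serve follicular helper T cells, which help B cells form antibodies. Of 6 tested genes of those cells, 1 rose and 5 fell, with a median of -0.23. Among all genes tested, 24.7% were called higher and 26.1% lower. Pou2af1, a transcriptional coactivator, fell from 983 ± 60.5 to 465 ± 34.7 (log2 fold change -1.08, adjusted p = 1.42e-09), and the cytokine gene Il21 from 3726 ± 230 to 2464 ± 96.4 (-0.60, adjusted p = 4.51e-08). Btla and Tnfrsf4 fell by 0.25 and 0.21 (adjusted p = 0.000676 and 0.000625), and Icos, a costimulatory receptor gene, rose by 0.44 (adjusted p = 9.77e-07). Pou2af1 is also a B cell gene, and its direction here was opposite to that of the B cell markers called.

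**Figure D5:**
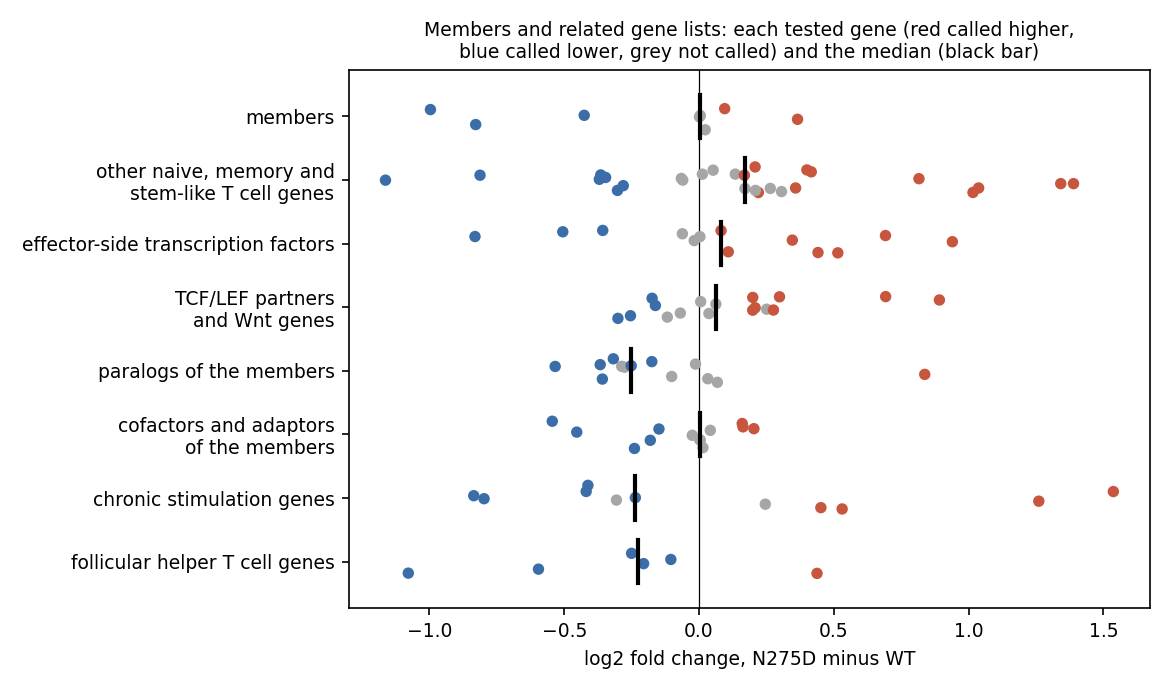
Log2 fold change, N275D minus WT, of every tested gene among the 8 members and 7 related lists (red called higher, blue called lower, grey not called), with the median of each as a black bar. Each list holds genes on both sides of 0, with medians from -0.25 for the paralogs to 0.17 for the other naive, memory and stem-like genes.

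Genes with the pattern most like each member were found by Pearson's r of log2 values over the 6 libraries, among 9580 genes with a mean of at least 100. The closest to Satb1 was Il7r (r = 0.9995), followed by Serpinb6a (0.9995). For Slamf6 they were Drosha (0.9996) and Hvcn1 (0.9994), for Tox Idh1 (0.9997) and Ddx19a (0.9990), and for Lef1 Polr2j (0.9990) and Cpsf4 (0.9989). For the members with a call these values mostly restate the step between genotypes, which 1466 (Lef1) to 1916 (Slamf6) genes shared at r over 0.9, and 315 for Bach2. The members without a call had far fewer such genes, 56 for Tcf7, 15 for Myb and 11 for Bcl6. Their closest were 0610030E20Rik (0.9913) and Thap3 (0.9872) for Tcf7, Gstp1 (0.9729) and Cmtm7 (0.9727) for Myb, and Ing5 (0.9851) and Anks3 (0.9732) for Bcl6, and for Bach2 they were Zfp507 (0.9918) and Zgrf1 (0.9897). All are descriptions over the same 6 libraries.

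Some exons of the members overlap other annotated genes. In GENCODE M21 these were Gm43352 at Lef1, Bach2os at Bach2, Gm36931 and Gm6934 at Satb1, Gm37419 at Bcl6, Gm26577 at Myb and Gm11802 at Tox, with none at Tcf7 and Slamf6. Gm36931 lies on the same strand as Satb1, so strand does not separate that pair, and the others lie on the strand opposite to their member. The strand setting used for counting is not given in the sources used here, so reads from these pairs cannot be told apart.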

How the data were processed

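RNA of 3 WT and 3 N275D Th17 libraries was sequenced. Per the study's methods, the authors used trimmed reads, STAR alignment to mm10, featureCounts for counting and DESeq2 for testing; versions are not given in the sources used here. The labels name a poly-A, NEBNext directional kit and the methods DNBSEQ strand-specific libraries. The authors deposited signal values, here called normalised reads: reads per gene times 1 factor per library, for 16244 genes. In all 6 libraries 100% of values were whole multiples of that factor within 1e-06, which gave the depths. Deposited columns with the authors' group averages, log2 fold changes and q-values were not used.

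Genotypes were compared with limma (3.58.1, R 4.3.3; trended prior, 12.0 prior degrees of freedom) on log2(normalised reads + 1), with no block. The 11908 genes whose mean reached 10 were tested, with Benjamini-Hochberg adjustment over all of them. Fold changes on this scale understate those of low genes. Calls needed an adjusted p under 0.05, and at 2-fold an absolute log2 fold change of 1. The code was tested on simulated data. Ratios of a pair of genes were compared by exact permutation. Alternatives were pseudocounts of 0.1 and 10, means above 0 and of at least 100, TMM, quantile normalization, no trend, library weights, a replicate block, edgeR (4.0.16) and DESeq2 (1.42.0) on recovered reads, and leaving out each library.

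Named genes were the 8 members, up to 4 genes called higher and 4 lower with the largest change in each list, and a set list of paralogs, antagonists and markers. Members, lists and motifs were chosen with earlier results of these data known. Coordinates are RefSeq GRCm38.p6 (mm10), matched by gene number for 16135 genes. One listed effector factor, Zfp683, was not analysed here, and some genes that the rule names are not reported here.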

Additional observations from a re-analysis of the deposited data

How the results depend on the processing

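Over the 17 alternatives 72 genes were followed, the 8 members among them, and 1134 of 1212 values kept their direction and their side of the threshold, 51 lost the call, 1 gained it and 26 changed sign, all of genes that were not called. The number of genes called at 2-fold was 427, and 259 with a pseudocount of 10, 703 with a mean above 0 and 162 with a mean of at least 100, settings that by construction shrink, add or drop low genes. Quantile normalization lowered the share of higher calls at 2-fold from 76.1% to 61.4%. It gave log2 fold changes of -0.0231 for Bcl6, -0.0831 for Bach1, 0.0526 for Tox4, -0.0281 for Sh2d1a, -0.0221 for Slamf7 and 0.0408 for Ep300, and called Tox2 (adjusted p = 0.0446). Library weights gave -0.0025 for Myb, 0.0008 for Tox4, -0.0195 for Sh2d1a and 0.0026 for Ep300. Leaving out each library in turn gave -0.0315 to 0.0462 for Tcf7, -0.0232 to 0.0568 for Bcl6, -0.0279 to 0.0296 for Myb, -0.0183 to 0.0271 for Id2, -0.0415 to 0.1394 for Bach1, -0.2027 to 0.0550 for Tox3, -0.0391 to 0.0157 for Tox4, -0.0361 to 0.1529 for Sh2d1a, -0.0022 to 0.0805 for Slamf7 and -0.0733 to 0.0093 for Ep300. The cause of these changes was not tested. Count tests on the recovered reads called 6085 genes in edgeR and 5078 in DESeq2. Same-numbered libraries of the genotypes did not deviate together from their group means (correlations of -0.045, 0.041 and -0.083), and libraries 1 and 3 correlated better with another number, so the numbers were not taken as pairs. With a replicate block 5727 genes were called against 6056, 428 at 2-fold, and Bach2 was the only member to lose its call (adjusted p = 0.0889). Bach2 also lost it with a mean above 0 (0.0548), without a trend (0.107) and in DESeq2 (0.0551). With 3 libraries a genotype, changes the size of that of Bach2 lie near what these data can resolve.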
